A study of Mus musculus with 28 samples.

Results

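Choroid plexus RNA libraries held transcripts of neurons, oligodendrocytes and astrocytes, and their amounts were followed library by library. A set of 39 genes was chosen by name: 18 neuron, 11 oligodendrocyte and 10 astrocyte genes, of 27179 Entrez identifiers in the count tables. RNA of the lateral ventricle choroid plexus came from 28 male mice, 1 library each, in 7 groups of 4. J20+ mice of 12 to 14 months were taken at night (zeitgeber time 18 h) or by day (6 h), as were their J20- wild-type littermates (aged WT). Wild-type C57/BL6 mice of 3 to 4 months were taken at night (18 h), by day after 6 h of sleep disruption (young SD) or by day without it (6 h). All mice were perfused with PBS under isoflurane before dissection, and the tissue was frozen and sequenced from poly(A) RNA. J20 is known as a mouse model of Alzheimer's disease that carries a mutated human APP transgene. The labels do not state which promoter drives it. The younger mice form batch 1 and the older mice batch 2, so age and batch cannot be told apart and no value was compared across ages.

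The choroid plexus is a sheet of secretory epithelium around a vascular core that hangs in the ventricle and makes cerebrospinal fluid. Neuronal cell bodies and myelin are not among its known main constituents. In the lateral ventricle it lies against the hippocampus, fimbria, thalamus and striatum, whose walls are lined by ependyma. Neurons are marked by synaptic vesicle and cytoskeletal proteins, oligodendrocytes by the proteins of the myelin sheath, and astrocytes by glutamate transporters, gap junction proteins and glial filaments. Ttr (the carrier transthyretin), Aqp1 (a water channel) and Slc12a2 (the NKCC1 cotransporter) are known for their high levels in choroid epithelium.

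Total counts were 14.6M to 43.9M per library. Choroid epithelium genes were abundant in all 28 libraries, with Ttr between 12.26 and 13.45 log2 CPM (counts scaled to a common library size by the trimmed mean of M values, or TMM, with a prior count of 2). None of the 12 epithelium markers was at 0 in any library. The 39 neural genes together took 0.0367 to 0.806% of the counts of the older libraries and 0.0267 to 0.0773% of those of the younger ones. These shares include Aldh1l1, which, as described below, did not vary with the other genes. In bulk tissue, fewer cells of a type and less RNA per cell cannot be told apart.

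Promoter windows of 4 of the genes are printed because these genes carry the patterns described next: a neuron gene, a myelin gene and an astrocyte gene that varied together across the older libraries, and Aldh1l1, which did not vary with them. Each window runs from 250 bases before to 50 bases after the RefSeq gene start (build GRCm38.p6) and is written 5′ to 3′ on the gene's strand. Capitals mark matches to 3 short motifs searched on both strands: TTCAGCACC (half-site of the neuronal repressor REST), ACAAAG (SOX factors) and TTGGCA (half-site of NFI factors). No motif contains another.
Syn1 (chrX:20920869-20921168, minus strand): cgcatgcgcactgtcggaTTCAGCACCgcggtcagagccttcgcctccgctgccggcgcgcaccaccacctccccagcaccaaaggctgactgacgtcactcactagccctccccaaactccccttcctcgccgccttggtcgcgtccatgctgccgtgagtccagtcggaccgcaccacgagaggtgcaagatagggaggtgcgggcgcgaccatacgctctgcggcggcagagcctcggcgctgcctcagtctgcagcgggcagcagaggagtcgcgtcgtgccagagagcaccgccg
Mobp (chr9:120149492-120149791, plus strand): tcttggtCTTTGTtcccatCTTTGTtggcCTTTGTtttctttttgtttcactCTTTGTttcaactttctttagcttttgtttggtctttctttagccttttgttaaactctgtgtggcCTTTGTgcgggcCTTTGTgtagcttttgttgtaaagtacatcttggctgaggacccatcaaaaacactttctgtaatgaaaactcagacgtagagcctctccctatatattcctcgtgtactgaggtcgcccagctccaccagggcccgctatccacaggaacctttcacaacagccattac
Slc1a2 (chr2:102706188-102706487, plus strand): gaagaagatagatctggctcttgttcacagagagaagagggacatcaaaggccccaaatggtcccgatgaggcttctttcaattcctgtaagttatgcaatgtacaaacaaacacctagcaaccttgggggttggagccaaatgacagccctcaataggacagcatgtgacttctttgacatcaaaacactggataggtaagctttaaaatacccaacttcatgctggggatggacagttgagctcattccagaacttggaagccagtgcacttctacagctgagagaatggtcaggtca
Aldh1l1 (chr6:90550543-90550842, plus strand): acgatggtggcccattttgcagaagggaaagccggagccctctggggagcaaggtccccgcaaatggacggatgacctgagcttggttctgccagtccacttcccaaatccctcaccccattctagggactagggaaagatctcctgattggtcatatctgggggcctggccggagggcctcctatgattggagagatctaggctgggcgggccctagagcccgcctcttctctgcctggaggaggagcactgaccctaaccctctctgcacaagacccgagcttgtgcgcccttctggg
Syn1, which encodes the synaptic vesicle protein synapsin 1, had 1 REST half-site, and Mobp, a myelin protein gene, had 6 SOX matches, all on the opposite strand. The windows of Slc1a2 and Aldh1l1 held none of the motifs. A window was found for 28 of the 39 genes, and some genes had more than 1. The REST half-site was in 1 of 12 neuron, 0 of 10 oligodendrocyte and 0 of 10 astrocyte windows, against 0.371% of all 32851 windows of this length. ACAAAG was in 3 of 12 neuron, 5 of 10 oligodendrocyte (Cnp, Mag, Mobp and Opalin) and 0 of 10 astrocyte windows, against 18.7% of all windows. Overlapping windows of Mag held the same match, which is therefore counted more than once. TTGGCA was in 3 of 12 neuron, 1 of 10 oligodendrocyte and 1 of 10 astrocyte windows, against 14.1% of all. These are matches of letters in a window and were not tested as binding sites. No window was found for Nefm, Aqp4, Snap25, Olig1, Grin2b, Camk2a, Sox10, Stmn2, Mbp, Celf4 and Nefl.

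The mean log2 CPM of the neuron genes ranged from -0.20 to 5.78 over the 16 older libraries. It was 1.77, 4.28, 0.80 and 0.10 in J20+ night libraries 1 to 4, 5.11, 2.66, 1.11 and 0.49 in J20+ day, 5.74, 5.78, 2.93 and 5.64 in aged WT night and 2.62, 1.73, 3.36 and -0.20 in aged WT day libraries. Libraries 1, 2 and 4 of aged WT night were the highest, followed by J20+ day library 1 and J20+ night library 2, and each group also held at least 1 library below 3. Oligodendrocyte genes averaged 2.91, 4.17, 0.78 and 0.54 in J20+ night, 3.70, 3.77, 0.85 and 0.50 in J20+ day, 6.95, 5.93, 3.57 and 5.16 in aged WT night and 2.24, 0.89, 5.65 and 0.62 in aged WT day libraries. Here aged WT day library 3 joined the high libraries. Astrocyte genes averaged 4.22, 5.05, 3.17 and 2.68 in J20+ night, 7.10, 4.67, 3.46 and 2.91 in J20+ day, 6.78, 6.56, 4.80 and 6.01 in aged WT night and 4.91, 3.40, 4.85 and 2.74 in aged WT day libraries. For these, J20+ day library 1 was above every other library. The lowest library for neuron genes was aged WT day library 4, for oligodendrocyte genes J20+ day library 4, and for astrocyte genes J20+ night library 4. Each pair of groups overlapped in all 3 classes.

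**Figure D1:**
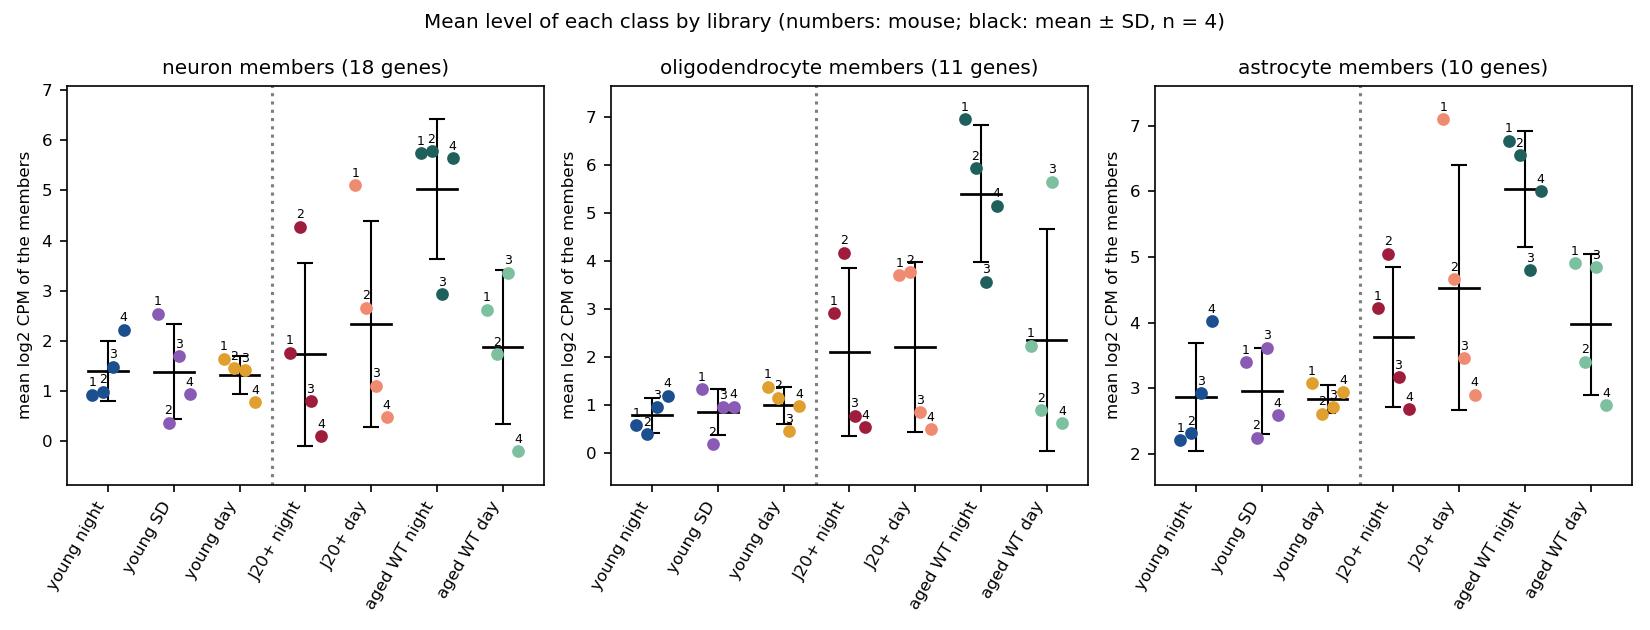
Mean log2 CPM of the 18 neuron, 11 oligodendrocyte and 10 astrocyte genes (y axis) in each library (points, numbered by mouse) by group (x axis), with the group mean ± SD (black, n = 4). Neuron means reach 5.74, 5.78 and 5.64 in aged WT night libraries 1, 2 and 4 and 5.11 in J20+ day library 1. In the younger batch the highest neuron mean is 2.54, in young SD library 1. The dotted line parts the 2 batches.

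Among neuron genes, Snap25, a SNARE protein of synaptic vesicle fusion, stood at 3.55, 6.34, 1.94 and 0.70 log2 CPM in J20+ night libraries 1 to 4 and 6.96, 4.47, 2.66 and 1.61 in J20+ day libraries. It stood at 7.93, 8.14, 4.48 and 7.58 log2 CPM in aged WT night libraries 1 to 4 and 4.77, 3.47, 5.40 and 1.19 in aged WT day libraries. The highest library exceeded the lowest 184-fold in CPM. J20+ night library 2 and J20+ day library 1 lay far above the other J20+ libraries, and aged WT night library 3 lay below the other aged WT night libraries. Snhg11, a long noncoding RNA gene abundant in neurons, had 5.17, 7.59, 4.40 and 3.80 log2 CPM in J20+ night libraries 1 to 4 and 7.22, 5.99, 4.80 and 4.01 in J20+ day libraries. In the wild types it had 8.54, 8.88, 6.25 and 8.28 log2 CPM in aged WT night libraries 1 to 4 and 5.89, 5.41, 6.45 and 3.76 in aged WT day libraries. Syp, which encodes the vesicle protein synaptophysin, had 4.31, 5.84, 3.88 and 3.91 log2 CPM in J20+ night libraries 1 to 4 and 7.46, 4.86, 4.13 and 4.06 in J20+ day libraries. Its wild-type levels were 7.50, 7.70, 5.14 and 6.97 log2 CPM in aged WT night libraries 1 to 4 and 4.70, 4.2, 5.22 and 3.98 in aged WT day libraries. Snhg11 and Syp had the highest mean log2 CPM of the 18 genes, and Syp had the narrowest range (3.82). The same libraries were high as for Snap25, with less distance from the rest.

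The widest ranges belonged to the glutamate decarboxylase genes of inhibitory neurons. Gad1 had 2.21, 4.28, -0.33 and -2.24 log2 CPM in J20+ night libraries 1 to 4 and 5.25, 3.21, 1.00 and -0.75 in J20+ day libraries. In wild types Gad1 had 7.47, 6.06, 3.30 and 7.25 log2 CPM in aged WT night libraries 1 to 4 and 3.25, 1.36, 3.53 and -0.39 in aged WT day libraries. Its range was 9.71, and its counts ran from 3 to 3027. Gad2 had 1.09, 2.95, -0.33 and -2.91 log2 CPM in J20+ night libraries 1 to 4 and 4.87, 2.24, -0.66 and -1.54 in J20+ day libraries. In wild types Gad2 had 6.76, 5.10, 2.21 and 5.79 log2 CPM in aged WT night libraries 1 to 4 and 2.72, 0.13, 3.21 and -1.93 in aged WT day libraries. Gad2 counts ran from 1 to 1770, with 1 read in J20+ night library 4. Both genes were highest in aged WT night libraries 1 and 4, whereas Snap25 and the calmodulin kinase gene Camk2a peaked elsewhere. Camk2a reached 320 CPM in J20+ day library 1, the highest value of that gene. The other 12 neuron genes had ranges of 4.28 to 8.50. Per kilobase of exon, which allows genes to be compared, median levels in the older libraries were 10.6 CPM per kb for Syp, 10.5 for Snhg11, 9.93 for Snap25 and 0.0147 for Grin2b, a glutamate receptor subunit. Rbfox3 (the neuronal nuclear protein NeuN) and Grin2b had 0 reads in at least 1 older library.

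Oligodendrocyte genes were led by Mbp, the myelin basic protein gene, with 8.78, 9.25, 6.77 and 6.64 log2 CPM in J20+ night libraries 1 to 4 and 8.27, 9.51, 6.79 and 6.69 in J20+ day libraries. It had 11.19, 10.80, 8.76 and 10.39 log2 CPM in aged WT night libraries 1 to 4 and 7.27, 6.36, 10.39 and 6.59 in aged WT day libraries. Aged WT night libraries 1 (2338.5 CPM), 2 and 4 and aged WT day library 3 were the highest, and the highest library exceeded the lowest 28.6-fold. Cnp, a phosphodiesterase of myelin, had 4.85, 5.39, 4.60 and 4.48 log2 CPM in J20+ night libraries 1 to 4 and 5.75, 5.44, 4.72 and 4.47 in J20+ day libraries. In wild types it had 8.28, 7.07, 5.23 and 6.21 log2 CPM in aged WT night libraries 1 to 4 and 5.0, 4.82, 7.07 and 4.56 in aged WT day libraries. The largest swings were those of Mobp and Mog, proteins of the myelin sheath. Mobp had 5.57, 6.39, 1.19 and 0.20 log2 CPM in J20+ night libraries 1 to 4 and 5.26, 6.74, 0.40 and -0.42 in J20+ day libraries. It had 8.82, 8.19, 5.81 and 7.67 log2 CPM in aged WT night libraries 1 to 4 and 3.48, 1.5, 7.62 and -0.01 in aged WT day libraries. Mog had 1.60, 3.24, -2.05 and -1.79 log2 CPM in J20+ night libraries 1 to 4 and 2.60, 2.47, -1.28 and -2.79 in J20+ day libraries. It had 6.32, 5.21, 2.49 and 4.19 log2 CPM in aged WT night libraries 1 to 4 and 0.91, -1.47, 4.92 and -1.42 in aged WT day libraries. Both were highest in the same 4 libraries as Mbp, and Mog had 1 read in its lowest library. Ermn, which encodes the myelin cytoskeletal protein ermin, had the narrowest range (3.81), with 3.70, 3.52, 3.54 and 3.64 log2 CPM in J20+ night libraries 1 to 4 and 3.52, 3.96, 3.42 and 4.78 in J20+ day libraries. It had 6.73, 5.45, 3.06 and 4.54 log2 CPM in aged WT night libraries 1 to 4 and 2.92, 3.44, 5.47 and 4.62 in aged WT day libraries. Its level in the low libraries stayed well above that of Mog. The other 6 genes had ranges of 5.18 to 8.99, and the lineage factor genes Olig2 and Sox10 had 0 reads in at least 1 library. Median levels per length were 45.6 CPM per kb for Mbp, 14.7 for Cnp and 0.351 for Olig2.

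Astrocyte genes had ranges of 0.99 to 8.52 in the older libraries. Slc1a2, the glutamate transporter GLT-1, had 5.39, 6.75, 3.99 and 2.87 log2 CPM in J20+ night libraries 1 to 4 and 8.82, 6.43, 4.39 and 3.27 in J20+ day libraries. It had 9.17, 9.03, 6.75 and 8.72 log2 CPM in aged WT night libraries 1 to 4 and 5.95, 4.37, 7.58 and 2.74 in aged WT day libraries. Its 4 highest libraries were aged WT night 1, 2 and 4 and J20+ day 1, the 4 with the highest neuron means. Gfap, the glial filament gene, had 5.06, 6.60, 3.01 and 2.22 log2 CPM in J20+ night libraries 1 to 4 and 8.88, 5.92, 3.37 and 3.05 in J20+ day libraries. It had 8.06, 7.08, 5.25 and 6.83 log2 CPM in aged WT night libraries 1 to 4 and 6.01, 3.12, 5.96 and 2.67 in aged WT day libraries. Slc6a11, a GABA transporter, had the widest range (8.52), with 2.64, 3.46, -0.39 and -2.0 log2 CPM in J20+ night libraries 1 to 4 and 6.18, 2.99, 0.62 and -0.88 in J20+ day libraries. It had 6.26, 6.52, 3.16 and 5.49 log2 CPM in aged WT night libraries 1 to 4 and 3.40, 0.52, 3.12 and -1.93 in aged WT day libraries. J20+ day library 1 was the highest for Gfap, while aged WT night library 2 was the highest for Slc6a11. Aldoc, an aldolase of astrocytes, had 5.96, 6.08, 5.70 and 5.71 log2 CPM in J20+ night libraries 1 to 4 and 7.33, 6.10, 5.46 and 5.35 in J20+ day libraries. It had 7.79, 7.79, 6.01 and 7.22 log2 CPM in aged WT night libraries 1 to 4 and 5.99, 5.68, 6.05 and 5.43 in aged WT day libraries. Aldh1l1, a folate enzyme used as an astrocyte marker, had 7.22, 6.23, 7.0 and 6.98 log2 CPM in J20+ night libraries 1 to 4 and 6.45, 6.90, 6.84 and 6.78 in J20+ day libraries. It had 6.66, 6.43, 6.71 and 6.43 log2 CPM in aged WT night libraries 1 to 4 and 7.0, 6.84, 6.55 and 6.97 in aged WT day libraries. Its range was 0.99, the narrowest of the 39 genes, and its level was not raised in the libraries where the other astrocyte genes were. Per length it had the highest median of the class, 26.8 CPM per kb, against 21.5 for Aldoc and 6.10 for Slc1a2. The other 5 genes (Aqp4, Slc1a3, Gja1, Gjb6 and Agt) had ranges of 3.43 to 5.67.

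**Figure D2:**
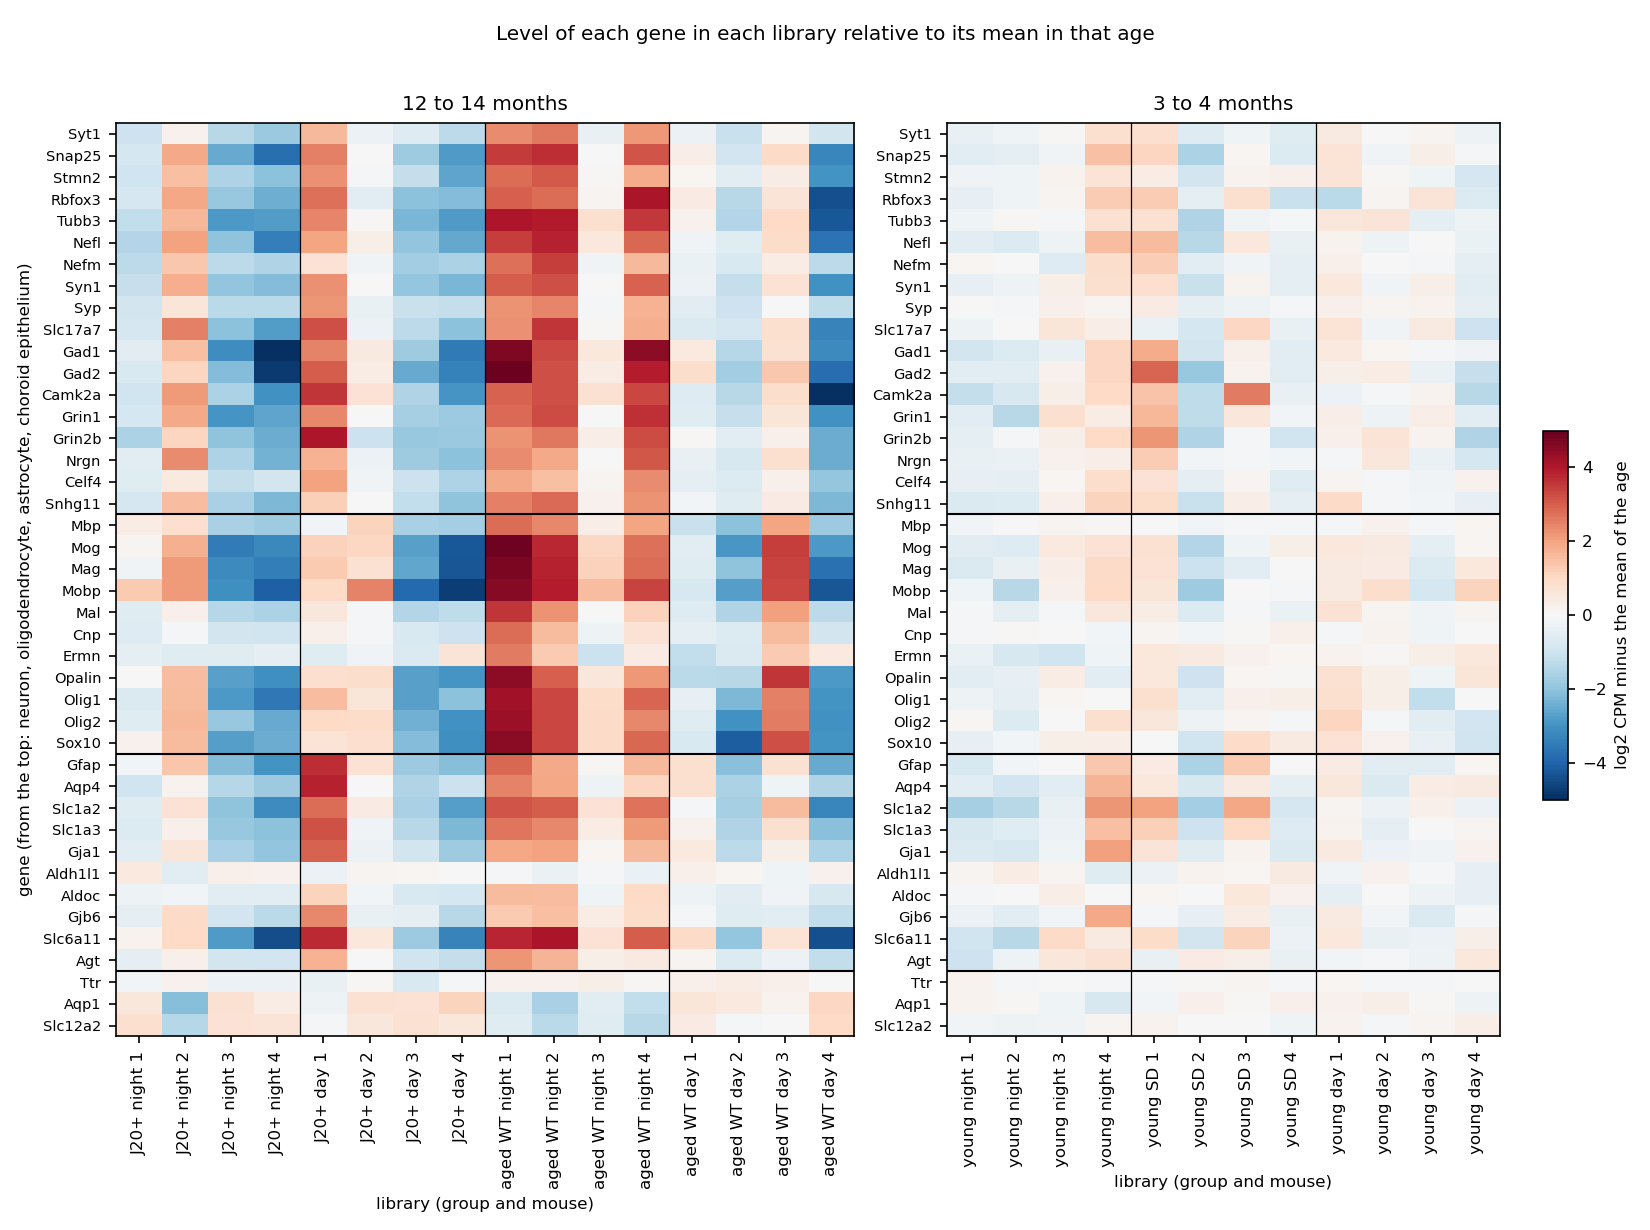
Level of each of the 39 genes and of Ttr, Aqp1 and Slc12a2 (rows) in each library (columns), as log2 CPM minus the gene's mean over the libraries of that age (colour scale from -5 to 5). Most rows share their red columns, aged WT night 1, 2 and 4, J20+ night 2 and J20+ day 1. Aldh1l1, with a range of 0.99, is nearly flat. Aqp1 and Slc12a2 are clearly blue in those columns except J20+ day 1, where they lie only slightly below their older means. There Aqp1 is 8.98 against a mean of 9.25 log2 CPM, and Slc12a2 is 9.86 against 9.97. Both genes are below their older means in every aged WT night library.

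In the 12 younger libraries the neuron mean ranged from 0.37 to 2.54. Neuron means were 0.93, 0.99, 1.49 and 2.22 in young night, 2.54, 0.37, 1.70 and 0.94 in young SD and 1.65, 1.46, 1.42 and 0.78 in young day libraries. Oligodendrocyte means were 0.59, 0.40, 0.96 and 1.20 in young night, 1.33, 0.18, 0.95 and 0.97 in young SD and 1.38, 1.16, 0.46 and 0.98 in young day libraries. Astrocyte means were 2.21, 2.32, 2.93 and 4.02 in young night, 3.40, 2.25, 3.62 and 2.59 in young SD and 3.08, 2.61, 2.71 and 2.94 in young day libraries. The groups overlapped in all 3 classes. Young night library 4 and young SD library 1 were the highest for neuron genes, and young SD library 2 was the lowest in neuron and oligodendrocyte genes. Snap25 had 3.95, 4.06, 4.31 and 5.98 log2 CPM in young night, 5.59, 2.92, 4.60 and 3.83 in young SD and 5.19, 4.30, 4.79 and 4.45 in young day libraries. Snhg11 had 4.61, 4.66, 5.58 and 6.43 log2 CPM in young night, 6.26, 4.21, 5.67 and 4.83 in young SD and 6.28, 5.26, 5.20 and 4.93 in young day libraries, and was the neuron gene with the highest mean. Syt1, the calcium sensor of vesicle release, had 4.37, 4.52, 4.80 and 5.53 log2 CPM in young night, 5.58, 4.07, 4.53 and 4.14 in young SD and 5.20, 4.71, 4.87 and 4.46 in young day libraries. All 3 genes were higher in young SD library 1 than in the other young SD libraries. Gad2, with the widest neuron range (4.78), had 0.69, 0.72, 1.46 and 2.26 log2 CPM in young night, 4.15, -0.64, 1.41 and 0.69 in young SD and 1.55, 1.63, 0.90 and 0.08 in young day libraries. Camk2a had 1.81, 2.21, 3.32 and 4.00 log2 CPM in young night, 4.44, 1.75, 5.60 and 2.63 in young SD and 2.72, 2.93, 3.19 and 1.62 in young day libraries, and its highest library was young SD 3. Syp, the narrowest neuron gene with a range of 0.89, had 3.45, 3.38, 3.68 and 3.57 log2 CPM in young night, 3.84, 2.96, 3.19 and 3.36 in young SD and 3.70, 3.6, 3.64 and 3.00 in young day libraries. Gad2 thus peaked in a library other than that of Camk2a.

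Mbp had the narrowest range of the oligodendrocyte genes in the younger libraries, 0.35 on the log2 scale, with 5.95, 6.08, 6.20 and 6.14 log2 CPM in young night, 6.10, 5.94, 6.02 and 6.00 in young SD and 6.03, 6.30, 5.96 and 6.17 in young day libraries. Ermn, the other abundant gene of the class, had 3.98, 3.54, 3.35 and 4.12 log2 CPM in young night, 4.84, 4.76, 4.54 and 4.42 in young SD and 4.50, 4.40, 4.62 and 4.87 in young day libraries. The 4 young night libraries were below all others for Ermn, a separation whose share over all genes was not counted. Mobp had 0.65, -0.52, 1.13 and 1.89 log2 CPM in young night, 1.48, -0.92, 0.88 and 0.84 in young SD and 1.33, 1.75, -0.01 and 2.0 in young day libraries, and Mog had 0.01, -0.11, 1.03 and 1.26 log2 CPM in young night, 1.3, -0.92, 0.31 and 0.84 in young SD and 1.05, 1.01, 0.04 and 0.65 in young day libraries. At 12 to 100 reads for Mobp and 12 to 64 for Mog, these values carry a larger counting error than Mbp with 1440 to 2316 reads. Among astrocyte genes, Slc1a2 had 3.94, 4.23, 5.26 and 7.81 log2 CPM in young night, 7.62, 3.92, 7.56 and 4.79 in young SD and 5.75, 5.32, 5.86 and 5.31 in young day libraries. Young night library 4 and young SD libraries 1 and 3 lay at 7.56 to 7.81, and the other 9 libraries at 3.92 to 5.86. Aldh1l1 had 4.73, 5.0, 4.75 and 4.01 log2 CPM in young night, 4.31, 4.80, 4.71 and 5.05 in young SD and 4.42, 4.82, 4.52 and 4.22 in young day libraries. Gfap had 1.39, 2.03, 2.14 and 3.52 log2 CPM in young night, 2.59, 0.60, 3.49 and 2.2 in young SD and 2.61, 1.65, 1.66 and 2.30 in young day libraries. Aldoc, with the narrowest astrocyte range, had 3.67, 3.72, 4.02 and 3.71 log2 CPM in young night, 3.80, 3.72, 4.25 and 3.92 in young SD and 3.25, 3.71, 3.45 and 3.29 in young day libraries. Aldh1l1 was lowest in young night library 4, where Slc1a2 and Gfap were highest. Of the remaining genes, Grin2b, Opalin, Olig1, Olig2 and Sox10 had too few reads in the younger libraries to be tested.

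The 3 classes varied together across the older libraries, most closely neuron with astrocyte genes. Snap25, Mbp and Slc1a2 stood for their classes in the tests, with 12 relations in each age, with Pearson's r and Spearman's rho over libraries, 2-sided permutation p-values from 100000 resamples and Benjamini-Hochberg adjustment over all 24. Points share the scaling of each library. Snap25 and Slc1a2 had r = 0.977 and rho = 0.977 over the 16 older libraries (adjusted permutation p = 0.00024 for each, raw p = 1e-05, the smallest that these resamples can give). Snap25 and Mbp had r = 0.853 and rho = 0.847 (adjusted permutation p = 0.00056 and 0.00054). Mbp and Slc1a2 had r = 0.882 and rho = 0.882 (adjusted permutation p = 0.00048 and 0.00024). Without the 2 libraries farthest from the median of the first gene, the 3 values of r were 0.970, 0.817 and 0.830. With group means removed, class means kept r = 0.954 between neuron and astrocyte, 0.850 between neuron and oligodendrocyte and 0.822 between oligodendrocyte and astrocyte genes, so the shared variation lay within groups too.

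In the 12 younger libraries, Snap25 and Slc1a2 had r = 0.849 and rho = 0.930 (adjusted permutation p = 0.0016 and 0.00032), and r = 0.778 without the 2 farthest libraries. The 3 libraries high in Slc1a2 stood apart by 43.6% of its range, and within the other 9 the pair had r = 0.843 and rho = 0.883 (permutation p = 0.00127 and 0.00301, adjusted 0.00635 and 0.0151 over 5 relations). This split was taken from the Slc1a2 values themselves, so the p-values within the 9 serve as a description only. Mbp passed the test with neither gene: r was 0.298 with Snap25 (adjusted permutation p = 0.418) and 0.231 with Slc1a2 (adjusted permutation p = 0.536). Mbp spanned 0.35 on the log2 scale in these libraries. The class means, as a description over 12 libraries, had r = 0.803 for neuron with astrocyte, 0.721 for neuron with oligodendrocyte and 0.683 for oligodendrocyte with astrocyte genes.

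Median r over pairs of single genes ordered the classes as the class means above did, as a description. The tested genes differed: in the older libraries Mbp with Slc1a2 (r = 0.882) ranked above Snap25 with Mbp (r = 0.853). In the older libraries, 140 of the 153 neuron pairs had r over 0.9, with a median of 0.948. Of the 55 oligodendrocyte pairs 38 were over 0.9 (median 0.953), and of the 45 astrocyte pairs 28 were (median 0.921). Between classes, the median r was 0.910 for neuron with astrocyte, 0.863 for neuron with oligodendrocyte and 0.804 for oligodendrocyte with astrocyte pairs. All negative pairs of the older libraries involved Aldh1l1, which had r = -0.66 with the mean of the rest of its class, while the other 9 astrocyte genes had 0.92 to 0.99. Ermn had the weakest tie to its class, r = 0.57, against 0.92 to 0.99 for the other oligodendrocyte genes. In the younger libraries median r within classes was 0.720, 0.420 and 0.488 for neuron, oligodendrocyte and astrocyte pairs. There Aldh1l1 again went against its class (r = -0.74), Ermn was unrelated to its own (r = 0.04) and Aldoc nearly so (r = 0.14).

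Epithelial genes moved differently from each other beside the neural genes. Aqp1 had 9.81, 7.12, 10.02 and 9.63 log2 CPM in J20+ night libraries 1 to 4 and 8.98, 10.00, 9.96 and 10.37 in J20+ day libraries. It had 8.52, 7.63, 8.68 and 8.01 log2 CPM in aged WT night libraries 1 to 4 and 9.84, 9.72, 9.41 and 10.27 in aged WT day libraries. J20+ night library 2 was the lowest, and the 4 aged WT night libraries were below the 4 aged WT day libraries. How many of all genes separate these groups in this way was not counted. Slc12a2 had 10.78, 8.53, 10.70 and 10.63 log2 CPM in J20+ night libraries 1 to 4 and 9.86, 10.54, 10.74 and 10.55 in J20+ day libraries. It had 9.37, 8.63, 9.35 and 8.58 log2 CPM in aged WT night libraries 1 to 4 and 10.36, 9.91, 9.98 and 10.95 in aged WT day libraries. The same libraries were low. Ttr had 12.95, 13.30, 12.78 and 12.79 log2 CPM in J20+ night libraries 1 to 4 and 12.70, 13.16, 12.31 and 13.02 in J20+ day libraries. It had 13.30, 13.29, 13.39 and 13.16 log2 CPM in aged WT night libraries 1 to 4 and 13.33, 13.45, 13.36 and 13.12 in aged WT day libraries. Ttr did not follow them, and its range was 1.13.

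Over the 16 older libraries, Aqp1 had r = -0.794 with Snap25, -0.691 with Mbp and -0.727 with Slc1a2, and rho = -0.794, -0.644 and -0.785 in that order (adjusted permutation p for r = 0.0011, 0.00829 and 0.00447, and for rho = 0.00172, 0.0227 and 0.00182). Slc12a2 had r = -0.824, -0.690 and -0.753 and rho = -0.809, -0.579 and -0.774 (adjusted permutation p for r = 0.0009, 0.00893 and 0.00367, and for rho = 0.00144, 0.0443 and 0.00216). The 6 values of r lay between -0.791 and -0.604 without the 2 farthest libraries. With group means removed, the relations of Mbp weakened to -0.497 with Aqp1 and -0.432 with Slc12a2 and no longer passed the test. Ttr had r = 0.403, 0.433 and 0.342 with Snap25, Mbp and Slc1a2 and rho = 0.371, 0.262 and 0.303, none past the threshold (adjusted permutation p = 0.138 to 0.261 for r and 0.25 to 0.369 for rho). With plain library totals in place of TMM these became 0.680, 0.644 and 0.625 and passed it. Aqp1 differed 9.51-fold and Slc12a2 5.36-fold between their highest and lowest libraries. Aldh1l1 had r = 0.83 with Aqp1.

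In the younger libraries, Snap25 had r = -0.656 with Aqp1 (adjusted permutation p = 0.0495) and rho = -0.573 (adjusted permutation p = 0.102), and r was -0.285 without the 2 farthest libraries, young night 4 and young SD 2, so the relation rests on them. Its direction with Slc12a2 was positive, r = 0.572 (adjusted permutation p = 0.0883) and rho = 0.720 (adjusted permutation p = 0.0274). The other young relations with Ttr, Aqp1 and Slc12a2 did not pass the threshold. Across the 3 groups, Aqp1 was 8.49, 8.36, 8.08 and 7.49 in young night, 8.18, 8.56, 8.38 and 8.57 in young SD and 8.51, 8.60, 8.38 and 8.07 in young day libraries, Slc12a2 stayed within 0.58 and Ttr within 0.28 on the log2 scale.

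**Figure D3:**
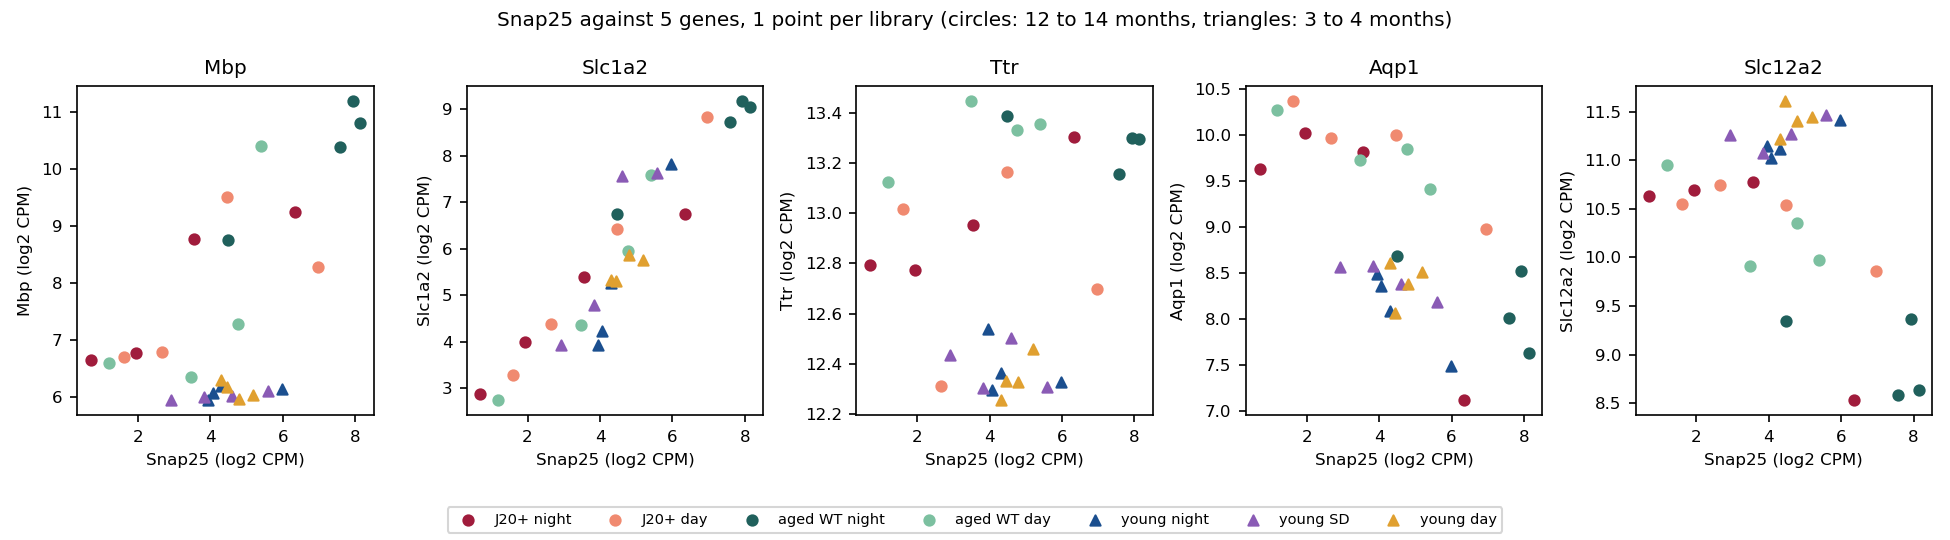
Snap25 (x axis, log2 CPM) against Mbp, Slc1a2, Ttr, Aqp1 and Slc12a2 (y axes, log2 CPM), 1 point per library, circles for the 16 older and triangles for the 12 younger mice, coloured by group. Mbp and Slc1a2 rise with Snap25 in the older libraries (r = 0.853 and 0.977), Aqp1 and Slc12a2 fall (r = -0.794 and -0.824) and Ttr shows no relation past the threshold (r = 0.403).

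Libraries high in neural genes did not hold the classes in the same proportions. The difference between the oligodendrocyte and the neuron mean was 2.29 in aged WT day library 3 and the astrocyte mean exceeded the oligodendrocyte mean by 3.40 in J20+ day library 1. Other genes of the brain, from lists of region and cell type markers, also differed between these libraries. The examples that follow were chosen after their values were seen. A value of 0 CPM is a count of 0, which allows up to 3 reads, or 0.0735 to 0.2 CPM in these libraries, for counting error only. Drd1, a dopamine receptor of striatal neurons, had 0.367, 1.13, 0.111 and 0.157 CPM in J20+ night, 1.16, 1.21, 0.172 and 0.15 in J20+ day, 13.8, 3.42, 1.41 and 17.3 in aged WT night and 1.21, 0.735, 4.32 and 0.168 in aged WT day libraries. It stood out in aged WT night libraries 1 and 4, as did Gad1 and Gad2. Slc17a6, a vesicular glutamate transporter of thalamic neurons, had 0.531, 3.45, 0.185 and 0 CPM in J20+ night, 18.2, 0.735, 0.441 and 0.0501 in J20+ day, 18, 42.6, 2.14 and 1.91 in aged WT night and 2.42, 0.267, 0.591 and 0 in aged WT day libraries. C1ql2, a gene of dentate granule cells, had 0.327, 3.05, 0.0371 and 0.0783 CPM in J20+ night, 15.9, 0.21, 0.0245 and 0 in J20+ day, 0.796, 1.92, 0.208 and 0.805 in aged WT night and 0.634, 0.0668, 0.0591 and 0 in aged WT day libraries. Slc17a6 peaked in aged WT night library 2 and C1ql2 in J20+ day library 1, the library highest in Camk2a and Gfap. The mean log2 CPM of the 8 hippocampus genes was also highest in J20+ day library 1 (3.11). Their summed CPM was not: it was 165 there, below the older median of 192, and highest in J20+ night library 1 (305).

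Pvalb, a calcium buffer of interneurons, had 0.735, 3.56, 0.185 and 0.0783 CPM in J20+ night, 3.29, 3.05, 0.613 and 0.1 in J20+ day, 42.3, 18.2, 1.09 and 4.03 in aged WT night and 2.88, 0.468, 1.3 and 0.112 in aged WT day libraries. Dcx, a microtubule protein of neuroblasts, had 0.408, 4.35, 0 and 0.0391 CPM in J20+ night, 3.25, 0.683, 0.172 and 0.201 in J20+ day, 10.9, 4.01, 2.92 and 26.8 in aged WT night and 1.84, 0.334, 2.19 and 0 in aged WT day libraries. Tmem212, a gene of ciliated ependyma, had 0.408, 4.41, 0.334 and 0.822 CPM in J20+ night, 36.9, 2.31, 0.343 and 0.251 in J20+ day, 8.76, 13.4, 4.85 and 11.7 in aged WT night and 5.36, 0.802, 1.95 and 0.112 in aged WT day libraries. Each peaked in a different library: Pvalb in aged WT night 1, Dcx in aged WT night 4 and Tmem212 in J20+ day 1. Among younger mice, young SD library 1 held 9.95 CPM of Drd1 and 10.8 CPM of Dcx, both the highest of that age.

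**Figure D4:**
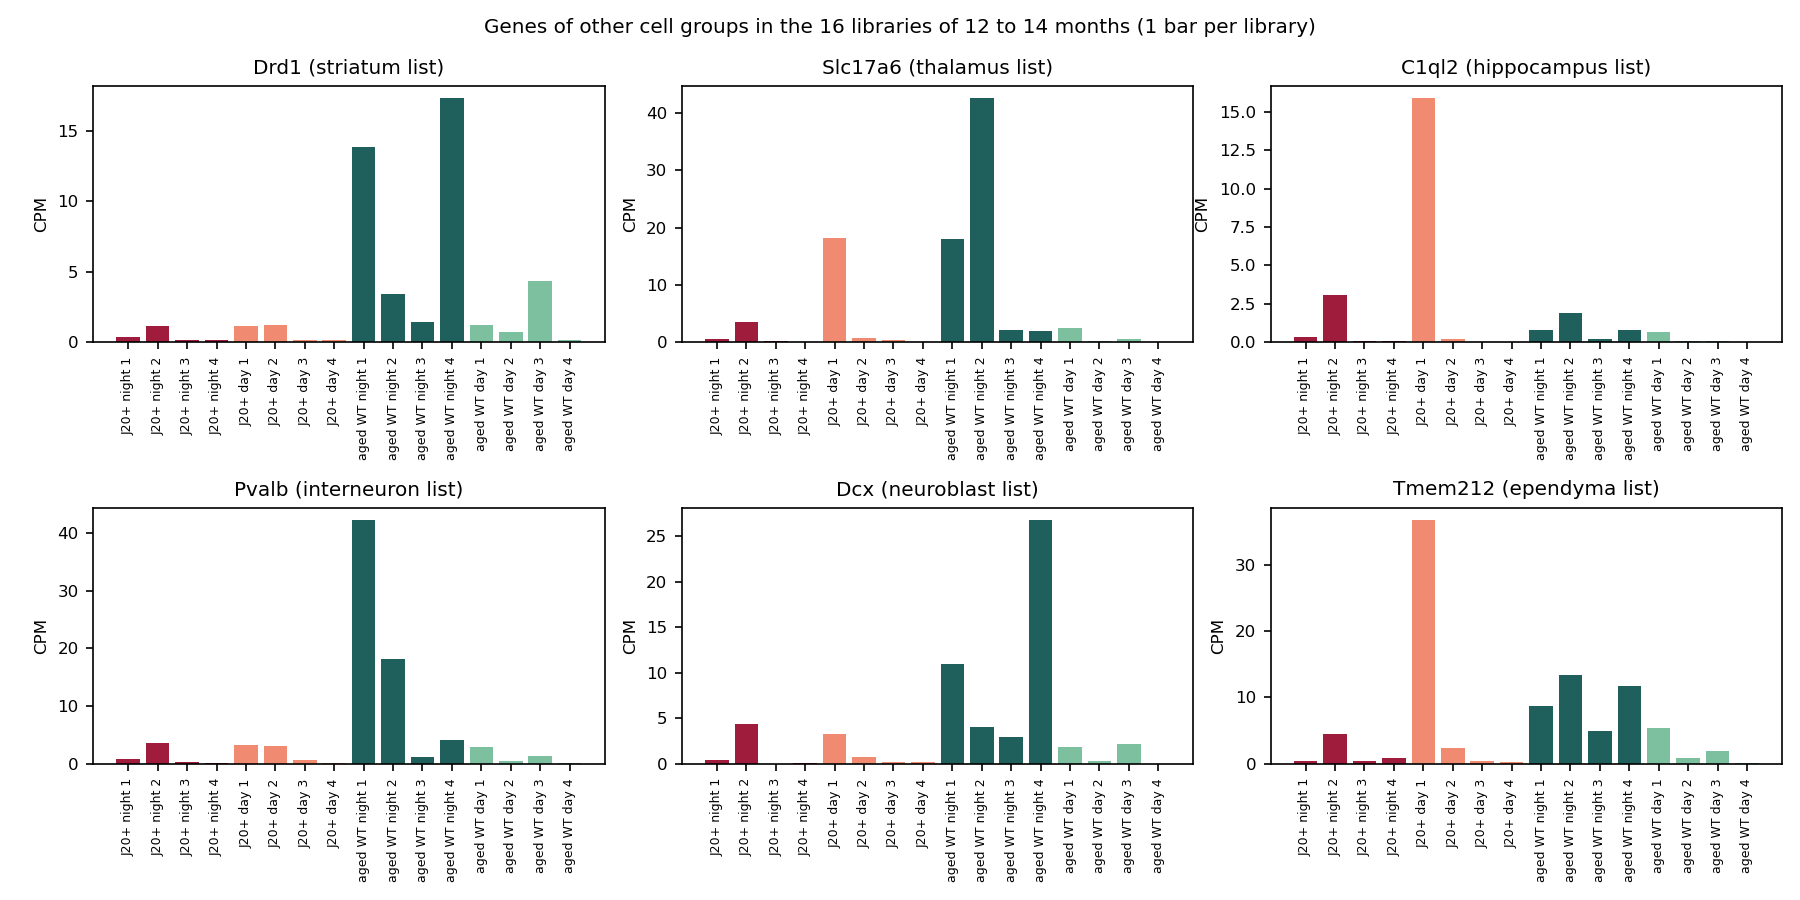
CPM (y axis, from 0) of Drd1, Slc17a6, C1ql2, Pvalb, Dcx and Tmem212 in the 16 older libraries (1 bar each, coloured by group). The highest bars are aged WT night 4 for Drd1 (17.3 CPM) and Dcx (26.8 CPM), aged WT night 2 for Slc17a6 (42.6 CPM), aged WT night 1 for Pvalb (42.3 CPM) and J20+ day 1 for C1ql2 (15.9 CPM) and Tmem212 (36.9 CPM).

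Other lists followed the 3 classes, as a description over the 16 older libraries. The neuron mean had r = 0.992 with a list of 20 other synaptic genes, 0.974 with oligodendrocyte precursor, 0.972 with interneuron, 0.933 with neuroblast, 0.909 with ependyma and 0.854 with microglia genes. The oligodendrocyte mean had r = 0.990 with other myelin genes, and the astrocyte mean 0.987 with other astrocyte genes. Against the mean of 12 choroid epithelium genes, r was -0.896 for neuron, -0.767 for oligodendrocyte and -0.789 for astrocyte genes. Depth moved with them as well: r with the total count was -0.601, -0.630 and -0.512 in that order, and -0.110, -0.042 and -0.183 in the younger libraries. The part of depth in these values was not tested.

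Of genes in none of the lists, the 10 with the highest r with each class mean were sought among 10441 genes that averaged 3 log2 CPM or more in the older libraries. For the neuron mean these included Meg3 (r = 0.992), Rian, Camk2b, Agap2, Uchl1, Arhgef4, Ncam1, Ank2 and Plppr3 (0.979). Meg3 and Rian are imprinted noncoding RNAs. For the oligodendrocyte mean they were Gatm (0.990), Prr18, Aatk, Tppp, Kif5a, Dbndd2, Mapt, Rcan2, Sez6l2 and Fez1 (0.959). Gatm makes a creatine precursor and Tppp a tubulin-binding protein of oligodendrocytes. For the astrocyte mean they included Sparcl1 (0.995), Gpr37l1, Scg3, Ptprz1, Kcnj10, Ncam1, Gria1, C4b and Ank2 (0.973). Kcnj10 encodes the potassium channel Kir4.1 of astrocytes. In the 12 younger libraries these genes had r of -0.25 (Plppr3) to 0.94 (Meg3) with the neuron mean, 0.36 (Sez6l2) to 0.88 (Kif5a) with the oligodendrocyte mean and 0.72 (C4b) to 0.97 (Sparcl1) with the astrocyte mean.

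Groups were compared with edgeR's quasi-likelihood test at an adjusted p of 0.05, where all log2 fold changes are given ± SE and rest on 4 mice per group. P-values rest on the spread between mice, estimated over all groups of an age together and not over the compared groups alone. None of the 39 genes passed the threshold in any of the 8 comparisons. The first asks how night differs from day in aged WT mice. Of 39 genes 38 had a positive log2 fold change, with medians of 3.14 for neuron, 2.07 for oligodendrocyte and 1.88 for astrocyte genes and 2.5 over all 39, against 0.03 over all 16065 genes tested. No member passed, and 2 of all genes did (0.0124%). At an unadjusted p under 0.05 there were 21 of 39 members (53.8%), which were 16 neuron, 0 oligodendrocyte and 5 astrocyte genes, against 31.1% of all genes. DESeq2 called 10 members and 8.05% of all genes, limma-voom 38 and 51.7%, and the same edgeR test fitted on these 8 libraries alone 21 and 26.2%. Without aged WT day library 3 the test called no member, with a median of 3.71 and 32 members at an unadjusted p under 0.05, and with other libraries of these groups left out 9 (without aged WT day 2) to 26 (without aged WT night 3) members were under it. These counts were not compared with the share of all genes under it in the same fits.

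The smallest p was that of Aldoc, 7.20 ± 0.84 log2 CPM in aged WT night and 5.79 ± 0.29 in aged WT day libraries (SD, n = 4 each), a log2 fold change of 1.55 ± 0.42 (edgeR, adjusted p = 0.144). Syt1 averaged 6.78 ± 1.39 in aged WT night and 4.53 ± 0.57 in aged WT day libraries, a change of 2.53 ± 0.71 (edgeR, adjusted p = 0.144). Snap25 averaged 7.03 ± 1.72 in aged WT night and 3.71 ± 1.86 in aged WT day libraries, a change of 3.16 ± 1.36 (edgeR, adjusted p = 0.148). Fold changes are ratios of mean counts, so a single high library weighs more in them than in the mean log2 CPM. Mbp and Slc1a2 had 1.81 ± 0.97 and 2.54 ± 1.22, and Aldh1l1 was the single gene with a negative value, -0.29 ± 0.18. Aqp1 and Slc12a2 had -1.58 ± 0.47 and -1.33 ± 0.41 (edgeR, adjusted p = 0.144 for each), with no overlap between the groups, and Ttr had -0.03 ± 0.20. The share of all genes without overlap between these groups was not counted.

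Other lists lay beside this. All 20 other synaptic genes, 13 of 14 other myelin genes, 10 of 14 other astrocyte genes, 7 of 7 microglia, 6 of 6 ependyma, 7 of 7 tested neuroblast and 6 of 6 interneuron genes had positive values, and all 12 choroid epithelium genes had negative ones, none of them called. Positive too were 5 of 7 oligodendrocyte precursor, 9 of 10 striatum and 8 of 8 cortex genes. In the hippocampus, thalamus and habenula lists, 6 of 8, 5 of 6 and 1 of 2 tested genes were. Of all genes tested, 52.1% were positive. Among the members with the smallest p were Rab3a, Cplx1 and Syngr3 of the synaptic list (0.92, 4.23 and 0.89 on the log2 scale) and Slc4a5, Prlr, Slc4a10 and Kl of the epithelium list (-0.88, -1.48, -1.51 and -1.03). The summed epithelium genes were 23271 to 34266 CPM in aged WT night and 41649 to 52707 CPM in aged WT day libraries. Neuroblast genes summed to 12.1 to 86.3 CPM in aged WT night and 4.01 to 7.33 CPM in aged WT day libraries, where up to 5 of their 8 genes were at 0, Dcx among them in library 4. Ependyma genes summed to 391 to 560 CPM in aged WT night and 324 to 428 CPM in aged WT day libraries, and microglia genes to 28.1 to 86.3 CPM in aged WT night and 28.7 to 50.7 CPM in aged WT day libraries, with no gene of these lists at 0. Total counts were 14.6M to 18.4M in aged WT night and 15.1M to 20.5M in aged WT day libraries. The part of these cell types in the differences was not tested.

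The second comparison asks how J20+ differ from wild-type mice at night. Aldh1l1 alone of the 39 genes had a positive log2 fold change of J20+ night over aged WT night, and medians were -2.69 for neuron, -3.22 for oligodendrocyte and -2.05 for astrocyte genes and -2.79 over all 39, against -0.01 over all genes. No member passed, and 1 of 16065 genes did (0.00622%). At an unadjusted p under 0.05 there were 25 members (64.1%), against 31.9% of all genes. With single libraries left out, 11 (without J20+ night 3) to 38 (without J20+ night 2) members were under it, with 12 without J20+ night 4, 13 without J20+ night 1 and 14 without aged WT night 1 or 2. The share of all genes under it in each of these fits was not compared. Syt1 averaged 4.06 ± 0.88 log2 CPM in J20+ night and 6.78 ± 1.39 in aged WT night libraries (SD, n = 4 each), a change of -2.87 ± 0.72 (edgeR, adjusted p = 0.0917). Cnp, Mal and Aldoc had -2.25 ± 0.65, -2.98 ± 0.92 and -1.49 ± 0.42, and Aqp1 and Slc12a2 1.22 ± 0.47 and 1.36 ± 0.41. These groups share the aged WT night libraries with the first comparison. DESeq2 called 15 members and 19% of all genes, and limma-voom 39 and 72.1%. Without J20+ night library 2, the test called 35 members, but it then also called 57.7% of all genes, and without aged WT night library 3 it called 1 member and 0.654% of all genes. All 20 other synaptic, 13 of 14 other myelin and 10 of 14 other astrocyte genes had negative values, as did 7 of 7 microglia and 6 of 6 ependyma genes, and 11 of 12 epithelium genes had positive ones. The synaptic genes with the smallest p were Rab3a (-0.79 ± 0.17), Syngr3 (-1.35 ± 0.29), Slc32a1 (-4.16 ± 1.38) and Napb (-1.88 ± 0.63). Summed epithelium genes were 23060 to 47845 CPM in J20+ night and 23271 to 34266 CPM in aged WT night libraries. Neuroblast genes summed to 5.30 to 15.5 CPM in J20+ night and 12.1 to 86.3 CPM in aged WT night libraries, and ependyma genes to 330 to 482 CPM in J20+ night and 391 to 560 CPM in aged WT night libraries. Total counts were 15.5M to 30.9M in J20+ night and 14.6M to 18.4M in aged WT night libraries. What part these had was not tested.

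For J20+ night over J20+ day the median of the 39 genes was -0.68, with 9 positive, and 1 gene had an unadjusted p under 0.05 (Aqp4, the water channel of astrocyte endfeet, -2.86 ± 1.09). No member passed, and 7 of all genes did (0.0436%). J20+ night library 2 and J20+ day library 1 had the highest neuron and astrocyte means of their groups. Without J20+ day library 1 the median was 0.62 with 33 positive, and without J20+ night library 2 it was -1.88. For J20+ day over aged WT day the median was 0.92, with 18 of 18 neuron, 0 of 11 oligodendrocyte and 9 of 10 astrocyte genes positive. No member and none of the 16065 genes passed (0.0%), and 1 member (Aqp4, 2.31 ± 1.06) and 300 genes had an unadjusted p under 0.05. Without J20+ day library 1 the median was -0.67 with 0 positive. Without aged WT day library 3 it was 1.74 with 38 positive, so the direction of the oligodendrocyte genes rests on that library. By limma-voom it was -1.11 with 38 of 39 negative. No member was called in either comparison by DESeq2, which called 0.429% of all genes for J20+ night over day and 0 for J20+ day over aged WT day, or by limma-voom, which called 1.71% and 14.7% in that order.

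Whether the day and night difference differed between J20+ and aged WT mice was tested as an interaction. The median of the 39 genes was -3.41, against 0.06 over all genes, with 38 negative. No member and no gene passed (0.0%), while 22 members (56.4%) and 12.4% of all genes had an unadjusted p under 0.05. DESeq2 called 0 members and 0.0136% of all genes, and limma-voom 26 and 33.3%. Without J20+ night library 2 the same test called 24 members and 20.9% of all genes. Without J20+ day library 1 the median was -1.73, and 5 members had an unadjusted p under 0.05. Without aged WT day library 3 the median was -4.43, and 37 members did. With other libraries left out, 14 to 29 members did. How the share of all genes under it moved in these fits was not compared.

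In the younger mice the 34 tested genes had median log2 fold changes of 0.10 for night over day, 0.03 for SD over day and 0.08 for night over SD. The sign of these medians turned with single libraries and with the method. With 1 library left out they ran from -0.23 to 0.26 for night over day, from -0.14 to 0.19 for SD over day and from -0.32 to 0.36 for night over SD. Night over day was negative without young night library 4 (30 of 34 genes), SD over day without young SD 1, young SD 3 or young day 2, and night over SD without young night 4, young SD 2 or young SD 4. By limma-voom the medians were -0.34, -0.33 and -0.04. No member passed, against 40 of 14983 genes (0.267%), 0 genes (0.0%) and 57 genes (0.38%) in that order. Members with an unadjusted p under 0.05 were 2, 1 and 1 of 34, against 9.39%, 2.40% and 9.70% of all genes, and for SD over day 359 of all genes had one, while DESeq2 and limma-voom called no member there. Ermn came nearest to the threshold. It averaged 3.75 ± 0.36 log2 CPM in young night and 4.60 ± 0.20 in young day libraries (SD, n = 4 each), a change of -0.83 ± 0.17 (edgeR, adjusted p = 0.0923). Over young SD libraries, which averaged 4.64 ± 0.19, the change was -0.87 ± 0.17 (edgeR, adjusted p = 0.0609). All 4 young night libraries were below all 8 others for Ermn, and the share of all genes with such a separation was not counted. For night over day, Ermn was called by DESeq2 along with 1.63% of all genes, by limma-voom with 18.9% and by edgeR without young night library 4 with 0.724%. For night over SD, it was called by these 3 along with 1.92%, 7.36% and 0.571% of all genes. For night over day Mbp had -0.03 ± 0.08 and Mog -0.08 ± 0.46, and young night and young day libraries overlapped for both. Aldoc had the smallest p for SD over day, 3.92 ± 0.23 in young SD and 3.42 ± 0.21 in young day libraries, a change of 0.50 ± 0.15 (edgeR, adjusted p = 0.861).

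**Figure D5:**
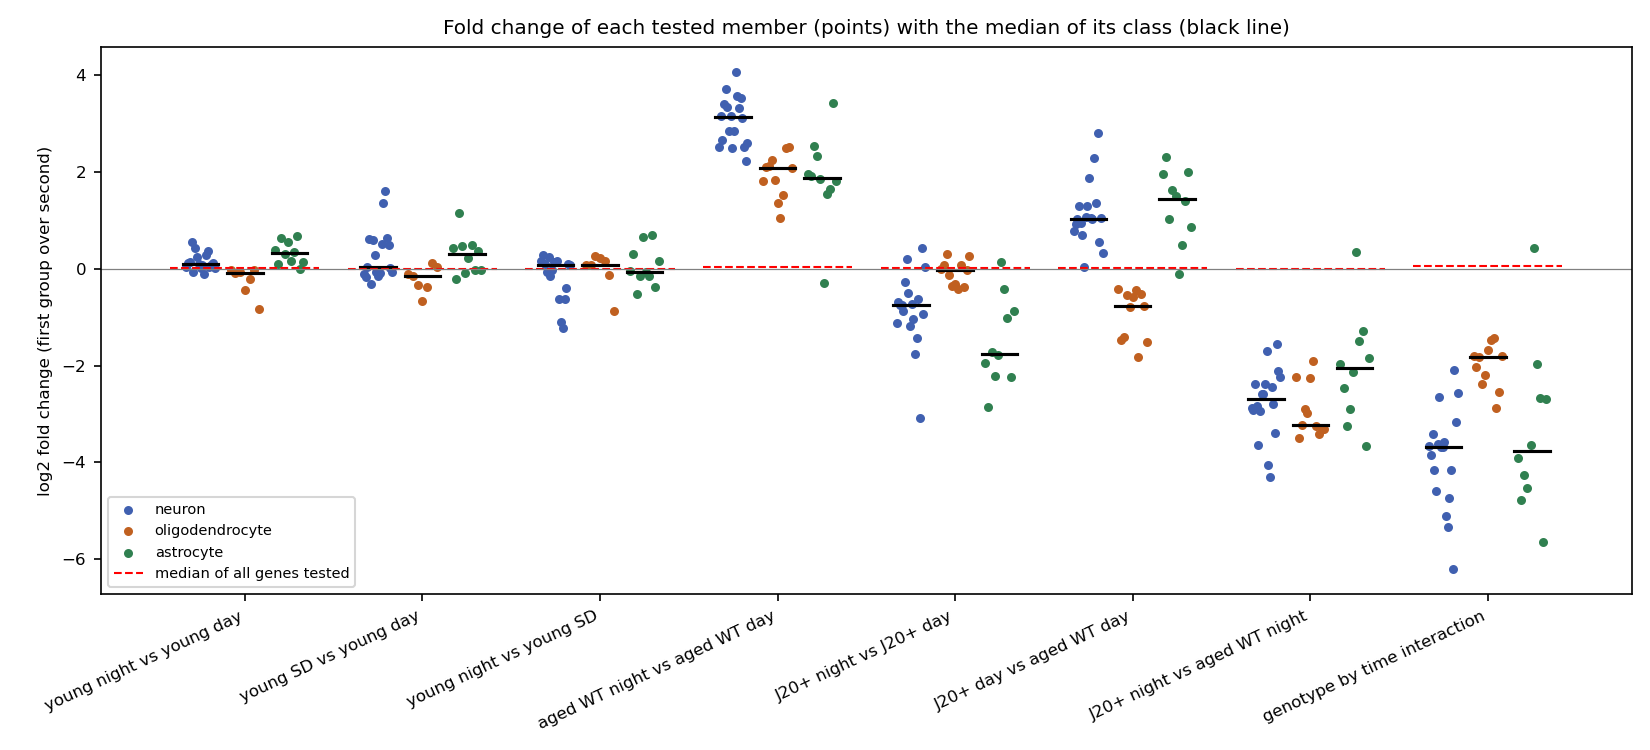
Log2 fold change (y axis, first group over second) of each tested gene in the 8 comparisons (x axis), coloured by class, with the median of each class (black line) and of all genes tested (red dashed line). Medians over the tested members are 2.5 in aged WT night over day, -2.79 in J20+ over aged WT night and between 0.03 and 0.10 in the younger mice.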

How the data were processed

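The authors deposited unnormalised read counts by Entrez identifier, in a table of 12 libraries of the younger mice and a table of 16 of the older mice. Alignment with HISAT2 2.2.1 to mm10 and counting with featureCounts 2.0.1 are named in the submitters' processing notes, along with Picard 2.18.2, FastQC 0.11.8, cutadapt and DESeq2. Not given in the sources used here were the counting annotation, the strand setting and how reads with several alignments were handled, so reads of overlapping genes, antisense genes and near-identical copies cannot be told apart.

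Identifiers were matched to symbols with the RefSeq table of GRCm38.p6 (25275 of 27179), and all 39 genes matched. Exon lengths came from GENCODE. The genes and lists were chosen with earlier results of these data known. Each age was fitted alone in edgeR 4.0.16 (R 4.3.3; filterByExpr, TMM, robust glmQLFit, glmQLFTest), with Benjamini-Hochberg adjustment over all genes tested (14983 and 16065) and a threshold of 0.05. SE was taken from the fold change and the root of its F statistic. Log2 CPM has a prior count of 2. Depth was 14.6M to 43.9M counts per library.

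Per class, values by library are given for the 2 genes with the highest mean log2 CPM, the 2 with the widest and the 1 with the narrowest range in an age, plus Snap25, Mbp, Slc1a2, Ttr, Aqp1 and Slc12a2. Other lists are represented by up to 4 members with the smallest p. Some genes that these rules would name are not reported here. Replicate numbers follow the order of the sample records and name separate mice. Alternatives were upper-quartile and RLE scaling, limma-voom (limma 3.58.1) with quality weights, DESeq2 1.42.0, no filter, at least 10 CPM in 4 libraries, compared groups only, and each library left out. Leaving out J20+ day 1 and J20+ night 2 together was added after seeing the data. Correlations were computed with scipy 1.17.1 and repeated with plain totals, RLE, a prior count of 0.5 and group means removed.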

Additional observations from a re-analysis of the deposited data

Results flagged for a closer look

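Within groups of 4 libraries, the gap of the highest or lowest library to its nearest neighbour was divided by the range of the group and set against Dixon's 95% critical value for 4 samples. Chance flags about 1 in 20 groups, and 17 of 315 groups were flagged here, which is near that rate. Flags in 1 library are not independent of each other, since the genes vary together.

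Aged WT night library 3 gave 6 of them, all low and all neuronal. Its neuron mean was 2.93 log2 CPM, with the nearest of the other 3 libraries at 5.64. Snap25 was 4.48 there, Syt1 4.71, Camk2a 5.49, Tubb3 (a neuronal tubulin) 2.30 and Syn1 2.24. Its oligodendrocyte and astrocyte means were not flagged.

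J20+ night library 2 gave 3. Nefm, a neurofilament gene, was high at 3.50, with the nearest library at 0.86. Aqp1 was low at 7.12 and Slc12a2 was low at 8.53, with the nearest libraries at 9.63 and 10.6. In J20+ day library 1 the glutamate receptor gene Grin2b was high at 3.14, with the nearest at -1.99.

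In the younger mice, Aqp4 was 5.49 and Gjb6, a gap junction gene of astrocytes, 5.03 in young night library 4, both high. Aldoc was 4.02 in young night library 3, also high, 0.30 above its neighbour. Nrgn, a postsynaptic calmodulin-binding protein gene, was high in young SD library 1 at 0.78. Aqp4 was low in young day library 2 (3.08), the myelin glycoprotein gene Mag in young day library 3 (-1.15) and Syp in young day library 4 (3.00).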

How the results depend on the processing

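No paired analysis was possible because replicate numbers follow record order and name separate mice. Counts of genes called, 0 by edgeR with TMM in all 8 comparisons, moved in 5. For young night over day, DESeq2 and limma-voom called 1, beside 1.63% and 18.9% of all genes (range 0 to 1 with each library left out). For young night over SD, upper-quartile scaling, DESeq2, limma-voom and the 10 CPM filter called 1 (0 to 1). Beside it they called 0.454%, 1.92%, 7.36% and 0.839% of all genes. For aged WT night over day, DESeq2 called 10, limma-voom 38 and the compared groups alone 21 (0 to 0). They also called 8.05%, 51.7% and 26.2% of all genes in that order. For J20+ over aged WT night, DESeq2 called 15 and limma-voom 39. Limma-voom also called 72.1% of all genes, and the DESeq2 share is given with the second comparison above. Leaving out both high J20+ libraries called 36, beside 62.9% of all genes. With each library left out the count was 0 to 35, with 57.7% of all genes beside the 35. For the interaction, limma-voom called 26 beside 33.3% of all genes (0 to 24, with 20.9% of all genes beside the 24). The other 3 stayed at 0 under every alternative.

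With each library left out, p-values of correlations were adjusted over the 12 relations of an age. Older libraries: with plain totals, r with Ttr was 0.680 for Snap25, 0.644 for Mbp and 0.625 for Slc1a2, all past the threshold; with libraries left out it ran from 0.339 to 0.544 for Snap25 and from 0.367 to 0.588 for Mbp, passing without J20+ day 1 and aged WT day 2. With group means removed, r of Mbp was -0.497 with Aqp1 and -0.432 with Slc12a2, no longer past it. The relations among Snap25, Mbp and Slc1a2 and those of Snap25 and Slc1a2 with Aqp1 and Slc12a2 passed under every alternative. Younger libraries: Snap25 with Aqp1 was -0.649 with RLE, no longer past it, and -0.749 to -0.409 with libraries left out, never past it; Slc1a2 with Aqp1 was -0.769 with group means removed, past it; Mbp with Aqp1 was -0.743 to -0.290 with libraries left out, past it without young day 2. Signs turned with plain totals for Snap25 with Mbp (-0.030), Mbp with Slc1a2 (-0.027), Mbp with Aqp1 (0.149) and Mbp with Slc12a2 (-0.357), and with libraries left out for Mbp with Slc12a2 (-0.056 to 0.237) and Slc1a2 with Ttr (-0.389 to 0.150). The cause was not tested.

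Of 624 log2 fold changes of named genes under alternatives, 530 kept sign and side of the threshold, 62 passed it newly and 32 changed sign. None that changed sign was called. The 62 were not compared with all genes under the same settings. Limma-voom called 51.7% of all genes for aged WT night over day and 72.1% for J20+ over aged WT night. With limma-voom, young night over day was -0.71 for Snap25, 0.020 for Mbp and -1.09 for Slc1a2. With libraries left out it ran from -0.61 to 0.33 for Snap25, -0.075 to 0.038 for Mbp and -0.99 to 0.98 for Slc1a2, the lowest of Snap25 and Slc1a2 without young night 4. SD over day ran from -0.79 to 0.13 for Snap25 and -0.026 to 0.14 for Ermn, and night over SD from -0.44 to 0.91 for Snap25. J20+ night over day for Mbp was -0.018 with RLE, -0.022 with DESeq2, -0.045 with the compared groups alone and -0.54 without both high J20+ libraries. With libraries left out it ran from -0.53 to 0.76 for Mbp, -2.79 to 1.23 for Snap25 and -2.71 to 0.14 for Slc1a2, the last 2 positive without J20+ day 1. J20+ over aged WT day was -1.62 for Snap25 and -1.18 for Slc1a2 with limma-voom, and -1.0 and -0.86 without both high J20+ libraries. With libraries left out it ran from -0.99 to 1.53 for Snap25, -0.85 to 2.26 for Slc1a2 and -1.24 to 1.5 for Mbp. Grin2b, Opalin, Olig1, Olig2 and Sox10 had few reads in the younger libraries, so their values there are limited by low counts.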

Other observations

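Further genes of brain regions, chosen after their values were seen, also differed between single older libraries. Penk, the proenkephalin gene of striatal neurons, reached 69.5 and 95.0 CPM in aged WT night libraries 1 and 4, against 0.672 to 16.9 CPM in the other 14 older libraries. Prkcd, a kinase gene of thalamic neurons, was 153 CPM in aged WT night library 2, against 40.8 to 71.0 CPM in the others. Tac2, a neurokinin gene of the medial habenula, was 4.43 CPM in that same library and at most 0.805 CPM elsewhere. The mean log2 CPM of the 6 habenula genes was also highest there (1.76). Their summed CPM, 32.6, was near the older median of 32.4, and was highest in J20+ day library 1 (67.0). Prox1, a factor of dentate granule cells, was 8.90 CPM in J20+ day library 1 and 7.54 CPM in aged WT night library 1, against at most 4.13 CPM in the others. The summed hippocampus genes went the other way, with 165 and 131 CPM in these libraries against an older median of 192. Ccdc153, a gene of ciliated ependyma, was 65.2 CPM in J20+ day library 1 and at most 26.8 CPM in the others. Dlx1, a factor of inhibitory neuron precursors, was 18.2 CPM in aged WT night library 4 and at most 4.67 CPM in the others.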
